A study of Drosophila melanogaster with 6 samples.

Results

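Cuticle protein genes were examined in heads of female Drosophila melanogaster. The group held every gene whose annotated symbol starts with Cpr, Lcp or Edg and a digit, or with Ccp84, Acp65 or Twdl, and for which the array annotation named a probe set for that gene alone. Of 11982 genes named by the annotation, 104 met this rule: 66 Cpr, 24 Twdl, 7 Lcp, 3 Ccp84, 3 Edg genes and Acp65Aa. In 102 of them a single probe set qualified, and for Cpr47Ef and Lcp65Aa the brighter of 2 probe sets was used.

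Tim-Fbl flies were compared with control flies, both grown at 25 °C. Heads were taken at ZT3, a morning time, and ZT15, a time after dark, where ZT (zeitgeber time) counts hours from lights-on. Tim-Fbl had 1 array at ZT3 and 1 at ZT15, without replicates, and the control had 2 arrays at each time. The labels enter both strain names under RNAi (RNA interference). They give neither the age of the flies, nor the driver and construct, nor whether the strains share a genetic background, and they do not say whether the replicate arrays came from separate cultures, so p-values here reflect only how far these arrays spread, and that spread may be technical.

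The insect cuticle is a layered extracellular matrix of chitin fibres and proteins that the epidermis secretes, and it covers the head, including its bristles and the lenses of the eyes. Most Cpr, Lcp, Edg and Ccp84 proteins belong to the CPR family, named for the Rebers and Riddiford consensus, a conserved stretch that binds chitin. Tweedle proteins, encoded by the Twdl genes, form a separate family of cuticle proteins. Cuticle genes are best known from molts, when pulses of ecdysone switch them on in sequence, but flies go on adding inner cuticle layers for some days after emerging as adults.

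Values are log2 array signals. The median of all tested probe sets lay between 5.46 and 5.51 on the 6 arrays and the lower quartile between 3.99 and 4.16. Head markers were bright: Arr2, the photoreceptor arrestin, read 14.17 to 14.31 and elav, a pan-neuronal RNA-binding protein, 9.73 to 10.56. The level of fbl (fumble, pantothenate kinase) was 7.47 and 7.49 in Tim-Fbl at ZT3 and ZT15, against 9.11 to 9.28 in control. The Tim-Fbl arrays (11.47 and 11.76) and control ZT15 replicate 2 (11.44) had a lower median 18S rRNA signal than the other control arrays (12.27 to 12.66). The Tim-Fbl ZT15 array had a median poly-A spike-in signal of 6.76, against 5.17 on the Tim-Fbl ZT3 array and 5.22 to 5.89 on the control arrays. The part of these array differences in the results was not tested. Some, not all, of the results that moved when an array was left out are given with that change.

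Few cuticle protein genes gave bright signals in these adult heads. Their mean over the 6 arrays reached 7 for 14 members (13.5%, against 37.9% of all probe sets). It reached 5 for 53 members (51.0%, against 55.8% of all probe sets) and lay under 5 for 51. Signals of different probe sets are not comparable as transcript levels, but a probe set under 5 lies below the array median and near the floor, where RMA compresses differences. The 14 bright members were 12 Cpr genes and 2 Lcp genes, among them Cpr65Au (12.44 to 12.88 over the arrays) and Cpr67B (10.07 to 10.77). No Tweedle, Ccp84 or Edg gene reached a mean of 7.

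The strain effect, the mean difference over both times, divided the cuticle genes in both directions: 6 were higher in Tim-Fbl, led by Lcp65Ac and Edg91, and 7 were lower, led by Cpr72Ec and Cpr49Ae, while 91 did not pass. A call was a limma adjusted p under 0.05, adjusted by Benjamini-Hochberg across the 18769 probe sets. By the same rule 8.79% of all probe sets passed, 5.44% higher and 3.35% lower, against 12.5% of the cuticle genes. Among the 53 members with a mean of at least 5, 5 were higher and 6 lower (20.8%, against 13.9% of all probe sets at that level). Without the Tim-Fbl ZT15 array 7 members passed, 5 higher and 2 lower, and 2.56% of all probe sets did.

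Lcp65Ac, a gene of the larval cuticle protein family, read 9.93 and 10.23 in Tim-Fbl at ZT3 and ZT15, against 6.95 and 7.2 on the control ZT3 arrays and 6.78 and 6.13 on the control ZT15 arrays. Both Tim-Fbl arrays lay above all 4 control arrays by a wide margin. The rise was 9.95-fold (log2 difference 3.32 ± 0.24 SE, limma adjusted p = 0.000563).

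Edg91, an ecdysone-dependent gene that encodes a glycine-rich cuticle protein, read 7.79 and 7.86 in Tim-Fbl, against 5.35 and 5.55 in control at ZT3 and 5.47 and 5.34 in control at ZT15. The 4 control arrays spanned a narrow range and the Tim-Fbl arrays stood clear of them. Edg91 rose 5.28-fold (log2 difference 2.40 ± 0.091 SE, limma adjusted p = 2.45e-05). The other Edg genes, Edg78E and Edg84A, differed by 0.04 and -0.20 without passing.

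Cpr11B and Cpr11A, CPR-family genes on the X chromosome, both rose in Tim-Fbl. Cpr11B read 9.77 and 10.29 in Tim-Fbl, against 8.27 and 8.23 in control at ZT3 and 7.98 and 8.70 in control at ZT15. Cpr11B rose 3.33-fold (log2 difference 1.73 ± 0.19 SE, limma adjusted p = 0.00349). Cpr11A read 3.95 and 4.53 in Tim-Fbl, against 3.33 and 3.39 in control at ZT3 and 3.21 and 3.45 in control at ZT15. All 6 of these Cpr11A values lie near the floor, so its log2 difference of 0.90 ± 0.14 SE (limma adjusted p = 0.0133) may understate the change. Without the Tim-Fbl ZT15 array Cpr11A did not pass (adjusted p = 0.0754, log2 difference 0.59).

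TwdlT was the single Tweedle gene that rose. It read 7.09 and 6.80 in Tim-Fbl, against 6.02 and 6.30 in control at ZT3 and 5.59 and 5.51 in control at ZT15, and the strains did not overlap. The rise was 2.12-fold (log2 difference 1.08 ± 0.11 SE, limma adjusted p = 0.00251). Cpr47Ef read 8.04 and 7.92 in Tim-Fbl, against 7.04 and 7.14 in control at ZT3 and 7.0 and 6.95 in control at ZT15. Cpr47Ef rose 1.93-fold (log2 difference 0.95 ± 0.074 SE, limma adjusted p = 0.000673); its second, dimmer probe set read 3.99 and 3.95 in Tim-Fbl and 3.85 to 4.03 in control, and did not pass (log2 difference 0.04).

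Of the genes lower in Tim-Fbl, Cpr72Ec differed most. It read 9.60 and 9.98 in Tim-Fbl at ZT3 and ZT15, against 12.64 and 12.63 in control at ZT3 and 11.25 and 11.40 in control at ZT15. The strains did not overlap at either time, and the gap was wider at ZT3 (log2 difference -3.04) than at ZT15 (-1.34). Over both times Cpr72Ec was 4.56-fold lower (log2 difference -2.19 ± 0.32 SE, limma adjusted p = 0.0095). With robust variances it did not pass (adjusted p = 0.0706).

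Cpr49Ae and Cpr49Ag, which lie close together on chromosome arm 2R, were both lower. Cpr49Ae read 9.37 and 9.46 in Tim-Fbl, against 11.39 and 11.62 in control at ZT3 and 10.96 and 11.01 in control at ZT15. Cpr49Ae was 3.55-fold lower (log2 difference -1.83 ± 0.14 SE, limma adjusted p = 0.000669), with both Tim-Fbl arrays below all control arrays. Cpr49Ag read 8.68 and 8.45 in Tim-Fbl, against 9.58 and 9.66 in control at ZT3 and 9.59 and 10.08 in control at ZT15. Cpr49Ag was 2.24-fold lower (log2 difference -1.16 ± 0.15 SE, limma adjusted p = 0.00664). It did not pass without the Tim-Fbl ZT15 array (adjusted p = 0.0627, log2 difference -0.94).

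The other genes called lower had small differences, and their mean signals lay between 4.17 and 5.90. Cpr97Eb, Cpr50Cb, TwdlO and Cpr12A had log2 differences of -0.46, -0.46, -0.44 and -0.37 (limma adjusted p = 0.0439, 0.0202, 0.0208 and 0.0298). In each of them both Tim-Fbl arrays lay below all 4 control arrays. None of these 4 passed when either Tim-Fbl array was left out. Cpr12A and Cpr97Eb also did not pass after quantile normalization or cyclic loess. The 5 members that came closest to passing were Lcp9, TwdlM, TwdlX, Cpr64Ad and TwdlV, at -0.28 to -0.33 (limma adjusted p = 0.0548 to 0.0663).

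**Figure D1:**
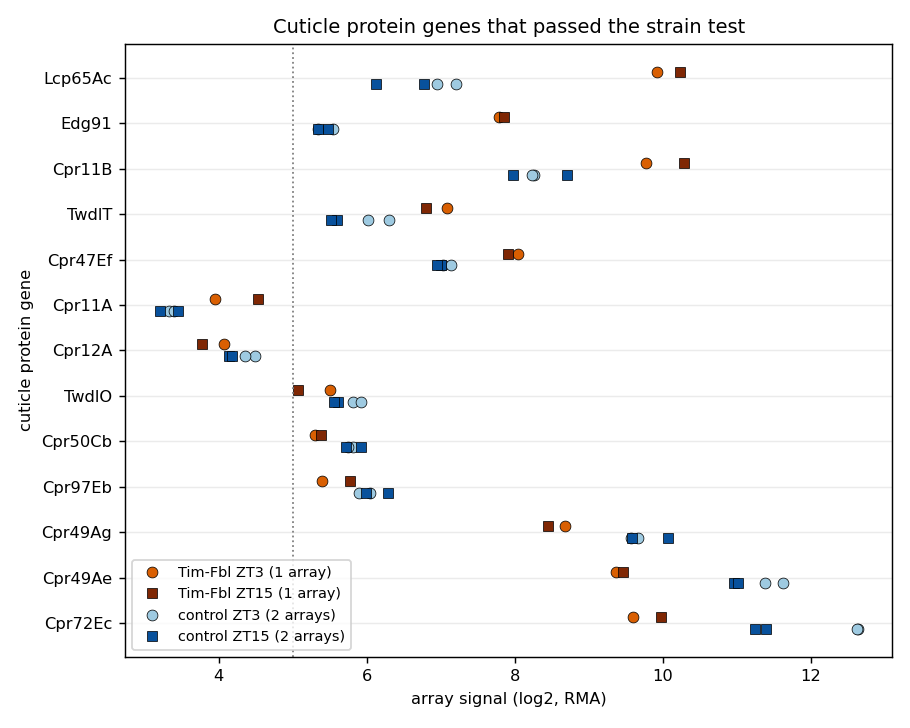
Log2 array signal (x axis) of the 13 cuticle protein genes that passed the strain test, 1 row per gene, with a point for each of the 6 arrays; the dotted line marks a log2 signal of 5. In Lcp65Ac the Tim-Fbl arrays read 9.93 and 10.23, above every control array, and in Cpr72Ec 9.60 and 9.98, below every control array.

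The members that did not pass ranged from -0.34 to 1.16. In 2 of these, Cpr62Bc (1.16) and Cpr100A (0.86), the difference was at least 1.5-fold. Cpr62Bc differed by 0.13 at ZT3 and 2.18 at ZT15. For Cpr100A the 2 times went opposite ways, with -0.21 at ZT3 and 1.94 at ZT15. Leaving calls aside, 42 members had both Tim-Fbl arrays below all 4 control arrays (40.4%, against 19.9% of all probe sets) and 9 had both above (16.5% of all probe sets). Among members with a mean of at least 5 the count below was 21 of 53 (39.6%, against 16.0%), and among those under 5 it was 21 of 51 (41.2%, against 24.8%). The median log2 difference of all members was -0.13, against -0.03 over all probe sets. After quantile normalization these medians were -0.08 and -0.01.

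**Figure D2:**
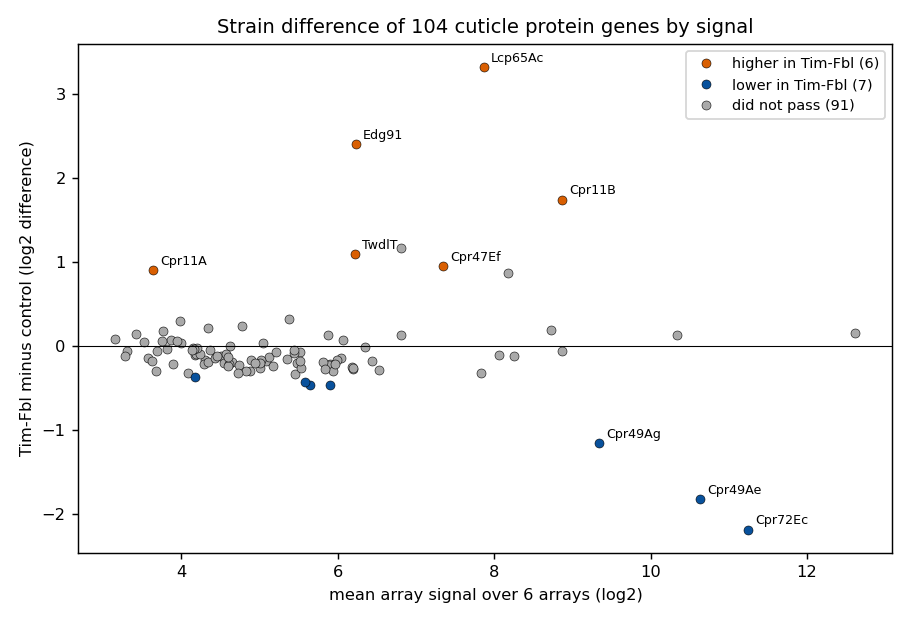
Difference between Tim-Fbl and control (y axis, log2) against the mean log2 signal over 6 arrays (x axis) for the 104 cuticle protein genes, 1 point per gene, coloured by the strain test. Most genes lie within 0.34 log2 units below 0 or close above it, with Lcp65Ac at 3.32 and Cpr72Ec at -2.19 as the extremes.

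Many cuticle genes sit side by side on the chromosome, in arrays of duplicated genes. By gene order in the RefSeq assembly Release 6 plus ISO1 MT, genes of the group separated by at most 3 other protein-coding genes were joined. In the arrays that held a gene called for strain, 1 or 2 members were called, and other arrays held no call. Of 11 measured members around Lcp65Ac, on arm 3L, Lcp65Ac passed and 10 did not; its direct neighbour Lcp65Ad read 4.23 and 4.11 in Tim-Fbl, against 4.21 to 4.37 in control. Cpr65Au, in the same array and bright on every array, differed by 0.15 (limma adjusted p = 0.389). Around Cpr49Ae 2 of 8 members were lower, and Cpr49Af, which lies between Cpr49Ae and Cpr49Ag, differed by -0.34 without passing (limma adjusted p = 0.103).

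Cpr72Ea and Cpr72Eb, the neighbours of Cpr72Ec, read 4.52 to 5.28 in Tim-Fbl, against 4.67 to 5.53 in control, and did not pass. Around Cpr47Ef 1 of 7 members rose, and around TwdlO 1 of 12 was lower. All 12 of these Tweedle genes had log2 differences below 0 (-0.44 to -0.05). So had 77 of 104 members, 10418 of all 18769 probe sets and 6313 of the 8290 with a mean under 5. By arm, the calls were 1 higher and 3 lower of 22 members on 2R, 1 and 1 of 40 on 3L, and 2 and 2 of 28 on 3R. On X they were 2 and 1 of 8, and 2L had none of 6. The share of all probe sets called on each arm was not counted.

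**Figure D3:**
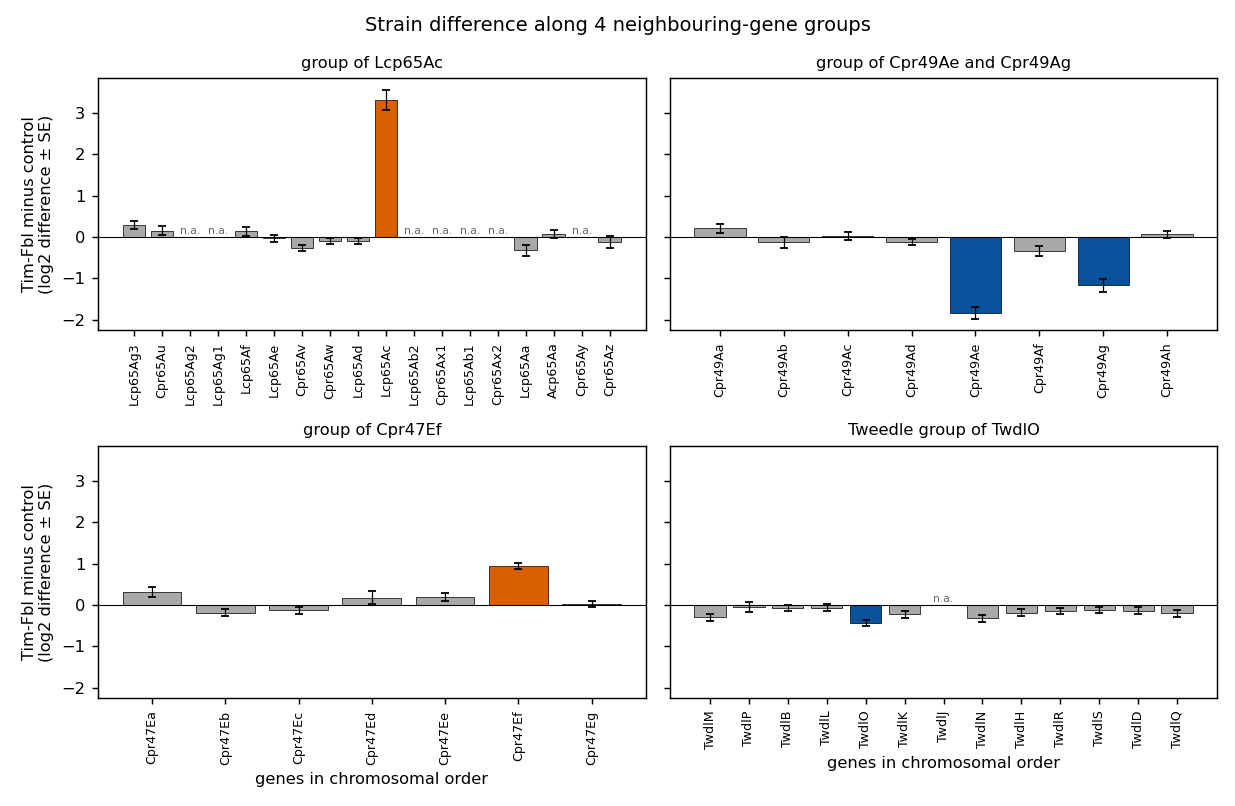
Tim-Fbl minus control log2 difference with its standard error (y axis) for neighbouring cuticle genes in chromosomal order (x axis) around Lcp65Ac, Cpr49Ae, Cpr47Ef and TwdlO; orange bars passed as higher, blue bars as lower, grey bars did not pass, and n.a. marks genes with no probe set of their own in this comparison. Lcp65Ac (3.32) is the only bar in its array that passed, and Cpr49Ae (-1.83) and Cpr49Ag (-1.16) flank Cpr49Af (-0.34). The probe set shared by Lcp65Ag1 and Lcp65Ag2, genes in the array of Lcp65Ac, is not drawn (log2 difference 1.57, limma adjusted p = 0.0357).

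A further 6 probe sets are annotated to several genes, at least 1 of them a cuticle gene, and lie outside the group. Of these, the probe set shared by Lcp65Ag1 and Lcp65Ag2, larval cuticle genes in the array of Lcp65Ac, read 8.33 and 9.86 in Tim-Fbl, against 7.12 and 7.95 in control at ZT3 and 7.44 and 7.58 in control at ZT15. It rose 2.97-fold (log2 difference 1.57 ± 0.35 SE, limma adjusted p = 0.0357), and did not pass under 7 of 15 alternatives, among them quantile normalization, cyclic loess and the fit without the Tim-Fbl ZT15 array. The other 5 shared probe sets, for Ccp84Aa and Ccp84Ab, Cpr65Ax1 and Cpr65Ax2, Cpr67Fa1 and Cpr67Fa2, and Cpr57A with Obp57d (2 probe sets), differed by -0.30 to 0.31 for strain without passing. For time in control the probe set of Ccp84Aa and Ccp84Ab passed as lower at ZT15 (log2 difference -0.64, limma adjusted p = 0.0424). That call was kept under 7 of 14 alternatives. Both shared probe sets singled out here, that of Lcp65Ag1 and Lcp65Ag2 and that of Ccp84Aa and Ccp84Ab, were named after their values were seen.

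Times of day were compared within control flies. Among the cuticle genes 2 passed, both lower at ZT15: Cpr100A and Cpr72Ec. None passed as higher by limma, and 102 did not pass. An unadjusted p under 0.05 was found for 24 of 104 members and for 3238 of all 18769 probe sets. The members' 1.92% stands beside 0.703% of all probe sets (0.314% higher, 0.389% lower) and 1.21% of those with a mean of at least 5.

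Cpr100A read 7.32 and 7.15 in control at ZT15, against 8.48 and 8.62 in control at ZT3. Both night arrays lay well below both morning arrays. It was 2.49-fold lower at ZT15 (log2 difference -1.31 ± 0.10 SE, limma adjusted p = 0.00477). Without control ZT3 replicate 2 the log2 difference was -1.24 (limma adjusted p = 0.0598) and did not pass; 1 member and 0.144% of all probe sets were called. Cpr72Ec read 11.25 and 11.40 in control at ZT15, against 12.64 and 12.63 in control at ZT3. It was 2.48-fold lower (log2 difference -1.31 ± 0.095 SE, limma adjusted p = 0.0039).

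The next members by test statistic were also lower at ZT15 without passing. TwdlT differed by -0.61 (limma adjusted p = 0.0909), Cpr62Bc by -0.56 (0.101), Cpr49Ae by -0.52 (0.114), Ccp84Ac by -0.48 (0.0855) and Cpr62Bb by -0.43 (0.167). For Ccp84Ac, from a gene cluster named for its place on the chromosome, the values were 5.74 and 5.71 in control at ZT15, against 6.17 and 6.25 in control at ZT3. For Cpr62Bb they were 8.81 and 8.55 at ZT15, against 9.12 and 9.08 at ZT3. In all 5 genes both ZT15 arrays lay below both ZT3 arrays.

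Counted without a threshold, 54 of the 104 members had both control ZT15 arrays below both control ZT3 arrays (51.9%, against 25.6% of all probe sets) and 6 had both above (26.5% of all probe sets). Among members with a mean of at least 5 the count below was 32 of 53 (60.4%, against 20.9%), and among those under 5 it was 22 of 51 (43.1%, against 31.7%). The median log2 difference was -0.11, against -0.01 over all probe sets, and after quantile normalization -0.08 against 0.00. These are counts over genes that share the same 4 arrays. Without control ZT15 replicate 1, 5 members passed, 1 higher and 4 lower, and 1.81% of all probe sets did.

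Within Tim-Fbl, with 1 array per time and no test, Cpr62Bc, Cpr100A and Cpr11A were at least 1.5-fold higher at ZT15 than at ZT3, and Cpr67B was at least 1.5-fold lower. Of all probe sets 1.40% were higher and 0.650% lower by that fold. Cpr67B read 10.07 at ZT15, against 10.77 at ZT3. Of the 14 bright members, 8 were higher and 6 lower at ZT15 in Tim-Fbl. The share of all probe sets at that level is not given for Tim-Fbl. In control 10 of the 14 had a negative difference, as did 2339 of 7107 probe sets with a mean of at least 7. The median difference of all 104 members within Tim-Fbl was -0.03, against -0.01 over all probe sets.

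The interaction tested whether the difference between the times differed between the strains. It passed in 2 cuticle genes, Cpr100A and Cpr62Bc, both with a larger ZT15 minus ZT3 difference in Tim-Fbl, and in none the other way. An unadjusted p under 0.05 was found for 12 of 104 members and for 1014 of all 18769 probe sets. The members' 1.92% stands beside 0.0373% of all probe sets (0.0320% higher, 0.00533% lower) and 0.0477% of those with a mean of at least 5. The test assumes that the single Tim-Fbl arrays vary like the control arrays.

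Cpr100A read 9.18 at ZT15 and 8.34 at ZT3 in Tim-Fbl, a difference of 0.84, against -1.31 in control. The Tim-Fbl array lay slightly below both control arrays at ZT3 and far above both at ZT15. The interaction was 2.15 ± 0.18 SE (limma adjusted p = 0.0282). Cpr62Bc read 8.32 at ZT15 and 6.83 at ZT3 in Tim-Fbl, a difference of 1.5; in control it read 6.12 and 6.16 at ZT15 and 6.83 and 6.57 at ZT3, a difference of -0.56. At ZT3 the Tim-Fbl array was level with a control array, and at ZT15 it was far above both. The interaction was 2.06 ± 0.19 SE (limma adjusted p = 0.0491).

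Both calls were lost after quantile normalization (adjusted p = 0.121 for each) and cyclic loess (0.0736 for each), with probe sets under a mean of 5 left out (0.137 for each), and without either control ZT3 array, although the interaction stayed between 1.93 and 2.25 log2 units in every fit run for these genes. Cpr72Ec, with a difference of 0.38 in Tim-Fbl and -1.31 in control, came next (1.69 ± 0.16 SE, limma adjusted p = 0.0533) and passed in 5 of the alternatives. The others among the 5 largest that did not pass were Cpr47Ed, Cpr11A, Cpr49Ae and Cpr97Ea (0.57 to 0.80, limma adjusted p = 0.616 to 0.842). The probe set shared by Ccp84Aa and Ccp84Ab also passed: it read 4.58 at ZT15 and 3.30 at ZT3 in Tim-Fbl, against 3.29 and 3.34 at ZT15 and 4.0 and 3.90 at ZT3 in control (1.92 ± 0.16 SE, limma adjusted p = 0.0282), all near the floor.

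**Figure D4:**
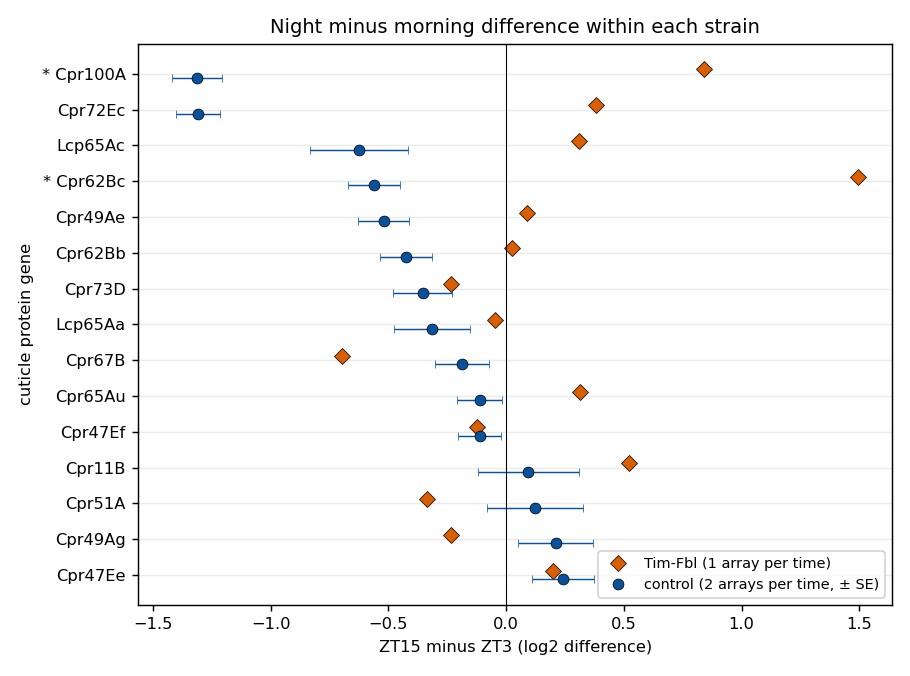
ZT15 minus ZT3 log2 difference (x axis) within Tim-Fbl (diamonds, 1 array per time, no error) and within control (circles, 2 arrays per time, with standard error) for the 14 cuticle genes with a mean log2 of at least 7 and Cpr62Bc; asterisks mark genes that passed the interaction test. Cpr100A and Cpr62Bc lie at 0.84 and 1.5 in Tim-Fbl, against -1.31 and -0.56 in control.

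Other genes of cuticle formation were set beside the cuticle proteins, as lists of genes for chitin, tanning, other matrix proteins, Osiris proteins and molting hormone signalling. For strain 23 of their 119 entries were called (19.3%, Gasp counted in both of its lists), against 8.79% of all probe sets and 13.9% of those with a mean of at least 5. In the list of other cuticle and apical matrix proteins 3 of 17 rose in Tim-Fbl and 1 was lower (median -0.01). Gasp, a chitin-binding protein that is also on the chitin list, read 10.10 and 9.39 in Tim-Fbl, against 9.70 and 9.39 in control at ZT3 and 8.49 and 8.48 in control at ZT15. It rose by 0.73 in Tim-Fbl over both times (limma adjusted p = 0.0133). At each time Tim-Fbl lay above both control arrays, but the Tim-Fbl ZT15 array did not lie above the control ZT3 arrays. In control Gasp was 1.06 log2 units lower at ZT15 than at ZT3 (limma adjusted p = 0.0224). The gene qsm, a zona pellucida domain protein, and resilin, an elastic cuticle protein, rose by 0.54 and 0.41, and Vajk2 fell by 0.95. When the Tim-Fbl ZT15 array was left out, all 4 calls of this list were lost.

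Of 32 measured chitin genes 4 rose and 2 were lower (18.8%, against 8.79% of all probe sets, with a median of 0.12). Cht5, a chitinase, rose 2.35-fold: it read 7.25 and 7.32 in Tim-Fbl, against 5.75 and 6.19 in control at ZT3 and 5.89 and 6.40 in control at ZT15. Idgf3 and Idgf1, chitinase-like secreted proteins, rose by 0.58 and 0.57, while their relative Idgf5 fell by 0.56 and Gnpnat, an enzyme of chitin precursor synthesis, fell by 0.70. Of 27 tanning genes 3 rose and 3 were lower (22.2%, median -0.06). The gene stw, which encodes the laccase that hardens cuticle, rose by 0.73 and yellow-g by 0.80. Pu, which makes the cofactor for dopamine synthesis, rose by 0.38, while speck, an N-acetyltransferase of dopamine, fell by 0.63.

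Of 24 Osiris genes, which encode membrane proteins of cuticle-secreting epidermis, none rose and Osi6, Osi2 and Osi3 were lower (median -0.18). That is 12.5%, against 8.79% of all probe sets. Osi6 read 4.58 and 4.67 in Tim-Fbl, near the floor, against 8.50 and 7.66 in control at ZT3 and 9.39 and 7.70 in control at ZT15, a fall of 3.69 ± 0.43 SE (limma adjusted p = 0.00418) that the floor may understate. Of 19 ecdysone and molting regulators 4 rose and none was lower (21.1%, median 0.09). Hr38, ftz-f1 and usp, which encode nuclear receptors, rose by 0.63, 0.51 and 0.33, and Eip93F, an ecdysone-induced transcription factor, by 0.38. In control at ZT15 Gasp was lower, Hr38 was lower by 1.51, and cyr, another zona pellucida domain protein, was higher by 1.07 (limma adjusted p = 0.0382). These calls were 1 of 32 chitin genes, 1 of 19 molting regulators, and 1 lower and 1 higher of 17 other matrix proteins. Of all probe sets 0.703% passed for time in control, and 1.21% of those with a mean of at least 5. No tanning or Osiris gene passed for time by limma, with 5 of 27 and 7 of 24 at an unadjusted p under 0.05. Of all 18769 probe sets 3238 were under it. No gene of these 5 lists passed the interaction by limma. Of their 119 entries 11 had an unadjusted p under 0.05, as did 1014 of all 18769 probe sets.

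Of 62 markers of other tissues in 8 lists, 9 were called for strain (14.5%). That stands beside 8.79% of all probe sets and 13.9% of those with a mean of at least 5. The markers were not filtered by signal. Of 7 hemocyte (blood cell) markers 2 rose, Hml by 0.71 and eater by 0.65, and 6 lay above 0; the mean log2 of the list was 9.19 and 9.16 in Tim-Fbl, against 8.67 to 9.02 in control. Of 7 muscle markers 2 rose, Act88F by 1.31 and sls by 0.61, with a list mean of 8.92 and 9.14 in Tim-Fbl, against 8.63 to 8.80 in control, and TpnC4, a flight muscle gene, at 2.83 to 3.23 on every array. Among 7 glial markers loco and alrm rose by 0.39 and 0.34 (list mean 10.96 and 10.93, against 10.80 to 10.90). In this list 4 markers lay above 0 and 3 below, down to -0.27. In the neuronal list none of 8 passed by limma, with 3 at an unadjusted p under 0.05 (5457 of all 18769 probe sets). Its list mean was 9.31 and 9.43 in Tim-Fbl, against 8.98 to 9.37 in control.

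None of 7 photoreceptor and 9 fat body markers passed by limma, with 0 and 1 at an unadjusted p under 0.05. The photoreceptor list means were 12.72 and 12.44 in Tim-Fbl, against 12.62 to 12.72 in control. Those of fat body were 12.63 and 12.91, against 12.30 to 12.72. Of the fat body markers 3 lay above 0 and 6 below (median -0.05), and the highest log2 difference was 3.00. Of 8 gut markers epsilonTry and Mal-A1 were lower by 0.31 and 0.41, and of 9 ovary and eggshell markers grk rose by 0.57, with list means under 5 on every array. The part of these shifts in the cuticle gene differences was not tested. In whole heads a change in the number of cells that express a gene and a change in RNA per cell cannot be told apart.

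**Figure D5:**
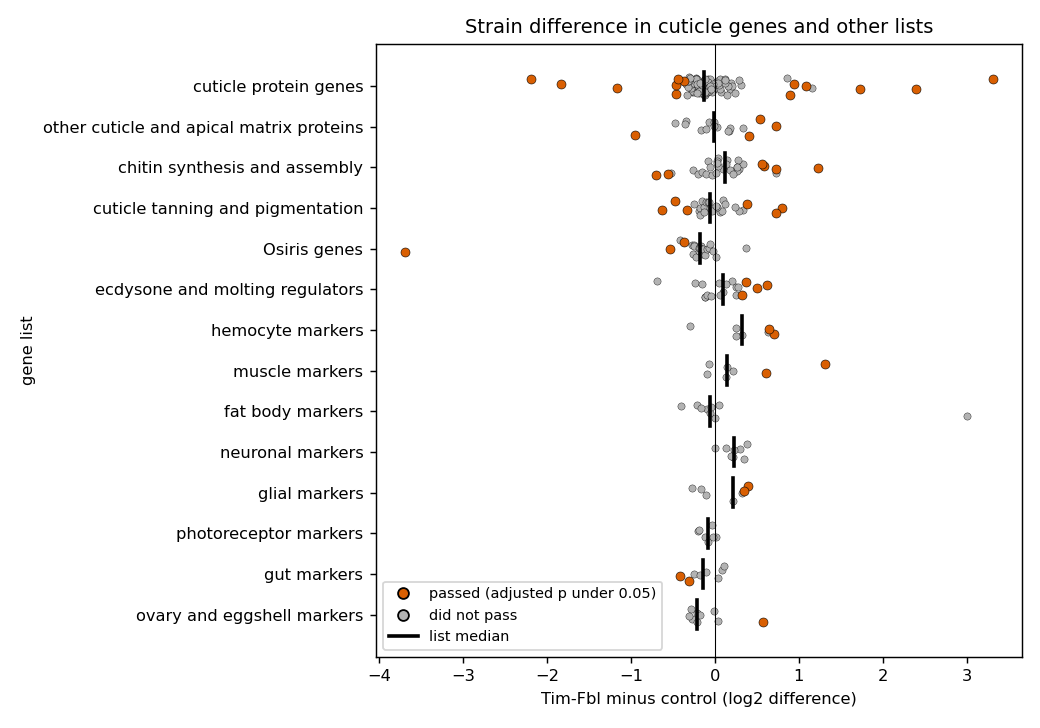
Tim-Fbl minus control log2 difference (x axis) of each gene, by list (y axis), with the 104 cuticle protein genes on top; orange points passed, grey points did not, black bars are list medians, and points are scattered vertically only for visibility. The cuticle proteins run from -2.19 to 3.32 around a median of -0.13, and Osi6 lies at -3.69.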

How the data were processed

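Per the labels' protocols, 3 µg of female head RNA was converted to biotinylated cRNA and hybridised to 6 Affymetrix arrays. The authors deposited 1 log2 value per probe set and array, a scale read from the range of the values. The submitters' processing notes name RMA; its version and the genome build are not given in the sources used here. RMA usually includes a step that brings arrays towards a common distribution, which can hide a shift common to every transcript; the deposited arrays still differed slightly in median and lower quartile. The number of arrays limits the precision.

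Of 18952 probe sets, 183 manufacturer's controls were left out and 18769 tested with limma 3.58.1 in R 4.3.3, at an adjusted p of 0.05. Strain was tested in an additive fit with time (3 residual degrees of freedom), the time effect in control and the interaction from a fit of the 4 group means (2 residual degrees of freedom, all from control pairs). Group members and lists were chosen with earlier results of these data known; the 13 other lists had 181 measured entries. Named were the marker genes Cpr72Ec, Cpr49Ae, Cpr100A, Lcp65Ac and Edg91, all members past a threshold, the 5 largest statistics that did not pass per test, bright members, neighbours of called genes in the RefSeq gene order, and up to 4 genes per other list. All 104 gene identifiers matched RefSeq, and no member's probe set carries the manufacturer's suffix for shared sequence. The functions were tested on simulated arrays. Alternatives changed the filter (mean log2 of 5 or 7), the scaling (median, quantile or cyclic loess), the variance model, the unit (1 test per gene), the fold minimum (1.5), the model (replicate number as a block, or the other fit) and the arrays (each left out in turn). Figures were drawn with matplotlib 3.10.9.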

Additional observations from a re-analysis of the deposited data

Results flagged for a closer look

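3 probe sets had a ZT15 minus ZT3 difference that differed between Tim-Fbl and control by the interaction term of the limma fit. Cpr100A had an interaction of 2.15 log2 units (0.84 in Tim-Fbl, against -1.31 in control). Cpr62Bc had 2.06 (1.5 in Tim-Fbl, against -0.56 in control). The probe set shared by Ccp84Aa and Ccp84Ab had 1.92, with every value under 5. In all 3 the Tim-Fbl ZT15 array, which also had the highest spike-in signal (6.76), was above both control ZT15 arrays, and its part in the result was not tested, since leaving it out leaves no interaction to estimate. No group held enough arrays to look for outlying samples.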

How the results depend on the processing

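The count of cuticle genes called for strain, 13, was 6 when only the 14 members with a mean of at least 7 were kept, and 9 to 15 under the other alternatives that used all arrays; leaving out each array in turn gave 7 to 13. The count for time in control, 2, was 0 by limma in the additive model over both strains, which averages control and Tim-Fbl differences. In that model 18 of 104 members had an unadjusted p under 0.05 (limma adjusted p = 0.288 for Cpr72Ec and 0.470 for Cpr100A). The time count also changed when some control arrays were left out in turn. The interaction count, 2, was 0 by limma with dim probe sets removed at a mean of 5 or 7, and after quantile or cyclic loess normalization. In these fits 8 of 53, 5 of 14, 12 of 104 and 13 of 104 members had an unadjusted p under 0.05. Shares of all probe sets under that p are not given for these fits or the additive model. The interaction count was 1 with 1 test per gene, and it also changed without a control array in turn. The cause was not tested. No interaction could be estimated without a Tim-Fbl array. With the replicate number as a block the counts were 12, 3 and 3, and over all probe sets 1212, 334 and 23 in place of 1650, 132 and 7; with 2 numbered pairs of control arrays, whose deviations correlated at 0.04, the numbers were not taken as a pairing. The probe set shared by Ccp84Aa and Ccp84Ab turned its sign, to -0.65 for strain without the Tim-Fbl ZT15 array (1.27 without the Tim-Fbl ZT3 array, 0.31 with both). For time it turned from -0.64 in control to 0.00084 in the additive model. Among recomputed values of named genes, 1221 kept direction and side of the threshold, 59 no longer passed, 17 newly passed and 2, both given above, changed sign. Signals near the floor limit what could be measured in the 51 members with a mean under 5.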
